A study of Mus musculus with 16 samples.

Results

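The insulin-like growth factor (IGF) axis was followed in the distal femur through 10 genes: the ligands Igf1 and Igf2, the receptor Igf1r, its adaptor Irs1, and the binding proteins Igfbp2 to Igfbp7. Every probe set annotated to 1 of these symbols was taken, which gave 27 of the 45037 probe sets on the array that are not controls, and each probe set was kept apart. Signal intensities came from 16 Affymetrix arrays, 1 per mouse, and the tissue was the lowest 5 mm of the left femur, so a gene's signal is that of a mixed tissue. The 4 groups held 4 mice each. They were osteoclast-specific ERaKO mice, which lack estrogen receptor alpha in osteoclasts, with estrogen (E2) for 4 hours; the same knockout without estrogen; wild-type mice with estrogen for 4 hours; and wild-type mice with vehicle. All mice were female, of the C57BL/6 strain and ovariectomized, so the untreated groups also lack ovarian estrogen. The knockout mice without estrogen are called vehicle-treated after the design text, since their own labels name no vehicle. The sources used here do not give the estrogen compound, its dose, the age of the mice or the Cre line behind the knockout.

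IGF1 and IGF2 are secreted growth factors that bind the receptor tyrosine kinase IGF1R, which signals through the adaptor IRS1 to the PI3 kinase and AKT pathway and to the MAP kinases. The IGF binding proteins hold the ligands in blood and in matrix and set how much reaches the receptor. In bone, IGF1 made by the liver and by bone cells is a growth signal for osteoblasts and chondrocytes, and estrogen receptor alpha is a ligand-activated transcription factor in several of these cell types.

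Igf1 and Igfbp5 carry the estrogen comparison below, so the promoter stretches of both are shown, as the 250 bases before the RefSeq start in build GRCm38.p6, 5′ to 3′ on the gene's own strand. The Igf1 stretch lies at chr10:87860861-87861110 on the plus strand and the Igfbp5 stretch at chr1:72874866-72875115 on the minus strand. Capitals mark matches on either strand to any of 7 motifs that were searched.
Igf1: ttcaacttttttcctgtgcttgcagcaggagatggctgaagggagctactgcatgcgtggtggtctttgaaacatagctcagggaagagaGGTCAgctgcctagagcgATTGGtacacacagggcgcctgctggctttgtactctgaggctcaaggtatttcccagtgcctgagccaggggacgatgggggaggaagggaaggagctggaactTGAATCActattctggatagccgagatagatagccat
Igfbp5: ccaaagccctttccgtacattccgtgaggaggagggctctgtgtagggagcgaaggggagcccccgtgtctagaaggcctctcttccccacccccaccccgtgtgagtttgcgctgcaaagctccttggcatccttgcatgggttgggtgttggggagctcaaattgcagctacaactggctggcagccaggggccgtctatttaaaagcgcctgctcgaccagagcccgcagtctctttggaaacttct
The Igf1 stretch holds GGTCA, the core of the estrogen response element, 160 bases before the start, the CCAAT box read from the other strand 142 bases before it, and the AP-1 site TGANTCA 37 bases before it. The Igfbp5 stretch holds none of the 7 motifs in these letters. All 10 genes had RefSeq promoters, 14 in all because Igf2 and Igfbp2 have several starts. The full estrogen response element, GGTCA and TGACC with 3 bases of any kind between them, was in 0 of the 14 and in 0.0639% of the 32851 mouse promoters of the same length. GGTCA alone was in 7 of the 14 promoters (of Igf1, Igf1r, Igf2, Igfbp2, Igfbp6 and Igfbp7) and in 35.2% of all promoters. CCAAT was in 3 of the 14 (of Igf1, Igf2 and Igfbp6), against 33.9%. TGANTCA was in 2 of the 14 (of Igf1 and Igfbp2), against 6.75%. The GC box GGGCGG was in 6 of the 14 (32.7% of all), the TATA box TATAAA in 2, those of Igfbp4 and Igfbp6 (12.4%), and the FoxO site GTAAACA in 0 (3.17%). These are matches of letters, not sites of binding.

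Each group held mice numbered 1 to 4, and the mice numbered 3 and 4 differed from those numbered 1 and 2 across the array. The summed signal of 12 skeletal muscle genes was 3811 to 38098.5 in replicates 3 and 4, against 89538 to 723080 in replicates 1 and 2. The sources used here do not say what the numbers stand for, and each group held 2 mice of each set. On 3 arrays, estrogen-treated knockout replicate 1, estrogen-treated wild-type replicate 2 and vehicle-treated wild-type replicate 2, the ratio of 3′ to 5′ Actb probe sets was 2.07 to 3.53, against 1.17 to 1.5 on the other arrays. Esr1, the targeted gene (probe set 1460591_at), gave 540 ± 149 in estrogen-treated and 637 ± 60.9 in vehicle-treated knockout mice, against 507 ± 106 in estrogen-treated and 945 ± 138 in vehicle-treated wild-type mice (mean ± SD). Only osteoclasts lack the receptor in the knockout, and the sources used here do not say whether this probe set lies in the deleted part, so Esr1 does not check the genotype labels. Bone markers were bright in every group: 6 osteoblast genes summed to 83245.5 to 128643 and 9 osteoclast genes to 22840.5 to 68551. In a mixed tissue, fewer cells of a type and less RNA per cell cannot be told apart.

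No probe set of the axis passed the test across all genes for estrogen. The 4 probe sets of Igf1 and both of Igfbp5 were those with an unadjusted p below 0.05 in wild-type femurs, with log2 differences of −1.45 to −0.63. The test was limma on log2(signal + 16) with 1 mean per group, and Benjamini-Hochberg adjustment over all 45037 probe sets at a threshold of 0.05. It passed 0 of the 27 for estrogen against vehicle in the knockout, against 0.0% of all probe sets, and 0 of the 27 in wild type, against 0.0%. In wild type 6 of the 27 had an unadjusted p below 0.05 as lower, the 4 of Igf1 and both of Igfbp5, against 3.57% of all probe sets, and 0 did as higher, against 2.58%. In the knockout 1 was lower (Igf1r, against 2.13% of all) and 1 higher (Irs1, against 1.6%) at that level. The median log2 difference over the 27 was 0.14 in the knockout and 0.06 in wild type, beside 0.02 and −0.02 over all probe sets. Groups of 4 did not overlap for 5 of the 27 in wild type, all with estrogen below vehicle, 3 of Igf1 and 2 of Igfbp5, where 1.71% of all probe sets lay that way and 1.41% the other way. In the knockout 1 probe set of Igf1r lay wholly below vehicle, where 2.03% of all did, and 1 of Igfbp3 wholly above, where 1.47% did. The wild-type counts come from repeated probe sets of Igf1 and Igfbp5 alone, which are not separate members. The members were also chosen with earlier results of these data known. These counts are therefore not evidence about the axis as a whole.

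**Figure D1:**
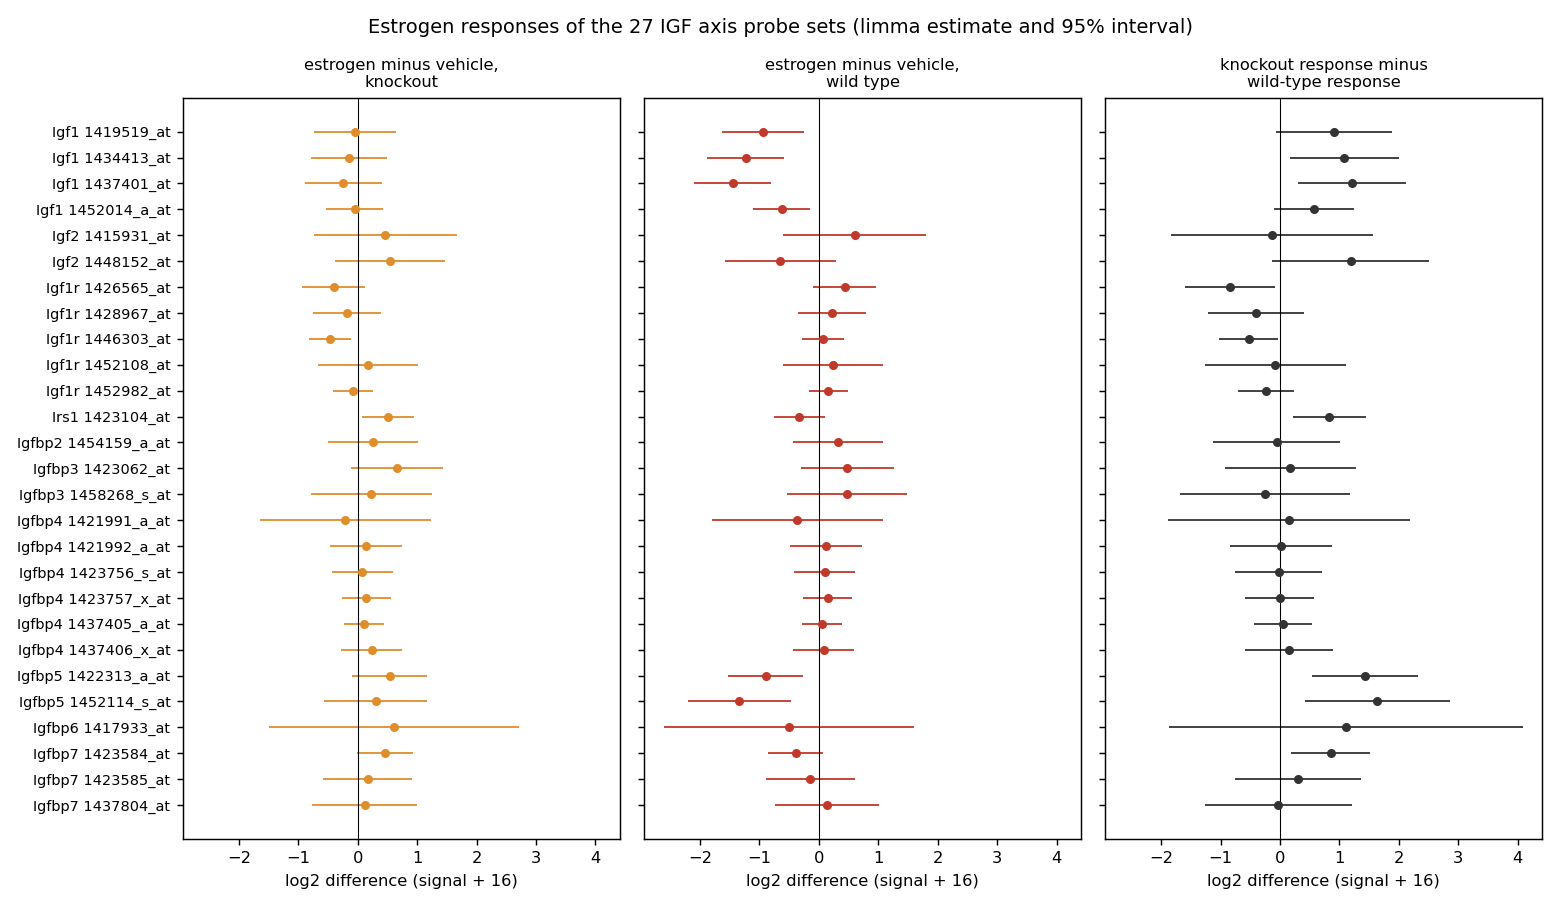
Log2 difference of signal + 16 with its 95% interval from limma for each of the 27 probe sets, for estrogen minus vehicle in the knockout, the same in wild type, and the knockout response minus the wild-type response. In wild type the intervals of all 4 Igf1 and both Igfbp5 probe sets lie below 0, and in the knockout those of Igf1 and Igfbp5 span 0.

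Igf1, the growth factor itself, was the member with the lowest p in wild type. Its probe set 1437401_at gave 1892, 1639, 882 and 758 in estrogen-treated knockout replicates 1 to 4, against 1305, 1509, 1463 and 1432 in vehicle-treated knockout replicates 1 to 4. It gave 918, 848, 389 and 651 in estrogen-treated wild-type replicates, against 2029, 2897, 1402 and 1434 in vehicle-treated wild-type replicates. All 4 estrogen-treated wild-type mice lay below all 4 vehicle-treated ones. In the knockout the groups overlapped: estrogen-treated replicates 1 and 2 lay above every vehicle-treated mouse and replicates 3 and 4 below every one. The log2 difference was −0.24 ± 0.31 (SE) in the knockout (adjusted p = 1.00) and −1.45 ± 0.31 in wild type (adjusted p = 0.372). The knockout response minus the wild-type response was 1.21 ± 0.43, with a 95% interval of 0.30 to 2.12 (adjusted p = 0.927). Leaving out 1 array at a time, the wild-type difference stayed between −1.60 and −1.20 with adjusted p of 0.172 to 0.748.

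A term for the replicate set (3 and 4, or 1 and 2) left the Igf1 estimate at −1.45 in wild type and narrowed its SE to 0.21. With that term Igf1 1437401_at fell in wild type (adjusted p = 0.0383), 1 of 3 probe sets passing among all 45037, or 0.00666%. This term was chosen because the sets were known to differ, and Igf1 was known to pass with it when the genes were picked, so the call is not independent evidence. It did not hold against single arrays: with the term, 7 of 16 fits that left out 1 array passed, and without vehicle-treated wild-type replicate 2 the adjusted p was 0.226 at a log2 difference of −1.34. The difference between the responses with the term was 1.21 ± 0.30 (adjusted p = 0.469), and no probe set of the axis passed it, against 0.0% of all.

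The other Igf1 probe sets gave the same direction in wild type, with smaller sizes. Probe set 1434413_at gave 693, 428, 326 and 375 in estrogen-treated wild-type mice, against 1545, 976, 855 and 935 in vehicle-treated wild-type mice, a log2 difference of −1.23 ± 0.31 (adjusted p = 0.424). Its knockout difference was −0.15 ± 0.31. Probe set 1419519_at differed by −0.04 ± 0.33 in the knockout and −0.95 ± 0.33 in wild type, and 1452014_a_at by −0.05 ± 0.23 and −0.63 ± 0.23. For 1452014_a_at the wild-type groups overlapped, through vehicle-treated replicate 2 at 324, and this probe set followed 1437401_at less closely over the 16 arrays (Pearson r = 0.44) than 1434413_at (r = 0.89) or 1419519_at (r = 0.86) did.

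**Figure D2:**
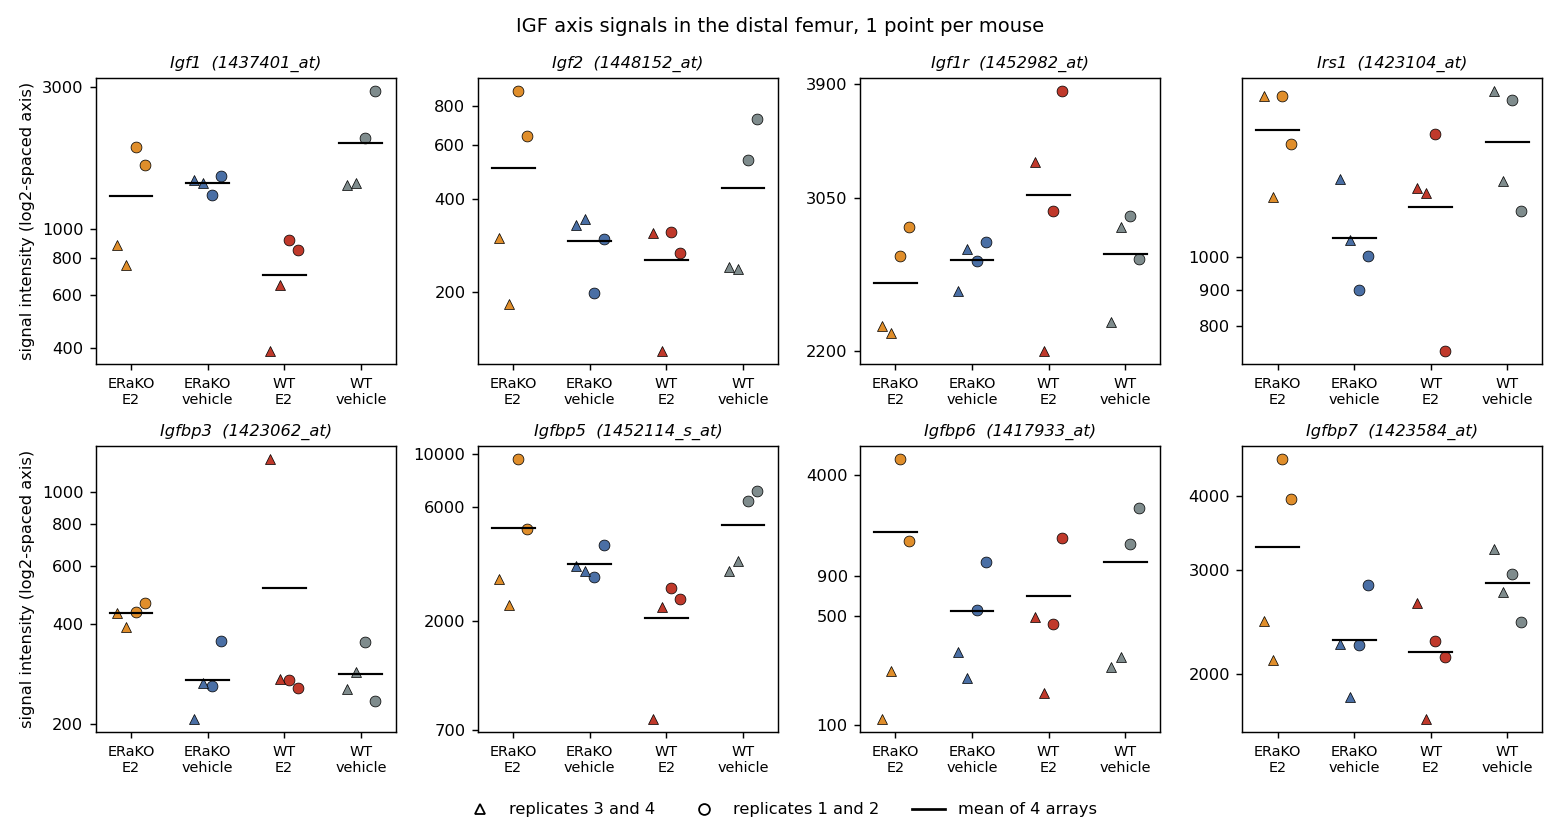
Signal intensity on a log2-spaced axis for 1 probe set each of 8 genes, 1 point per mouse, with triangles for replicates 3 and 4, circles for replicates 1 and 2 and a bar at the mean of 4 arrays. The probe set of highest mean signal is shown for each gene, and for Igf1 the estrogen-treated wild-type mice lie between 389 and 918, below the vehicle-treated wild-type mice at 1402 to 2897.

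The Igf1 response was also taken within each replicate set, and its change between the sets passed in neither genotype. In a fit with 1 mean per group and set, added after the data had been seen, estrogen minus vehicle for 1437401_at in the knockout was −0.81 ± 0.24 in replicates 3 and 4 and 0.32 ± 0.24 in replicates 1 and 2. In wild type it was −1.46 ± 0.24 in replicates 3 and 4 and −1.44 ± 0.24 in replicates 1 and 2. The difference between the sets was −1.14 ± 0.34 in the knockout (adjusted p = 0.953) and −0.02 ± 0.34 in wild type (adjusted p = 0.991). The knockout and wild-type responses stood 0.65 ± 0.34 apart in replicates 3 and 4 (adjusted p = 1.00) and 1.77 ± 0.34 apart in replicates 1 and 2 (adjusted p = 0.0669). The change of that distance between the sets was −1.11 ± 0.48 (adjusted p = 0.546). For 1434413_at the knockout values were −0.78 in replicates 3 and 4 and 0.48 in replicates 1 and 2, and for 1419519_at −0.62 and 0.54. In wild type they were −1.31 and −1.15 for 1434413_at, and −0.65 and −1.25 for 1419519_at.

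Of the 27 probe sets 0 passed in limma for the change of either genotype's response between the sets, against 0.0% of all, and 0 for the distance between the genotype responses, against 0.0% in replicates 3 and 4 and 0.0155% in replicates 1 and 2. At an unadjusted p below 0.05, the distance between the genotype responses took 0 of the 27 in replicates 3 and 4, where 2.61% of all probe sets did, and 10 of the 27 in replicates 1 and 2, where 15.1% did. The change of the knockout response between the sets took 6 of the 27, all lower in replicates 3 and 4, where 5.2% of all did in either direction. For wild type that count was 1 of the 27, where 7.15% of all did.

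**Figure D3:**
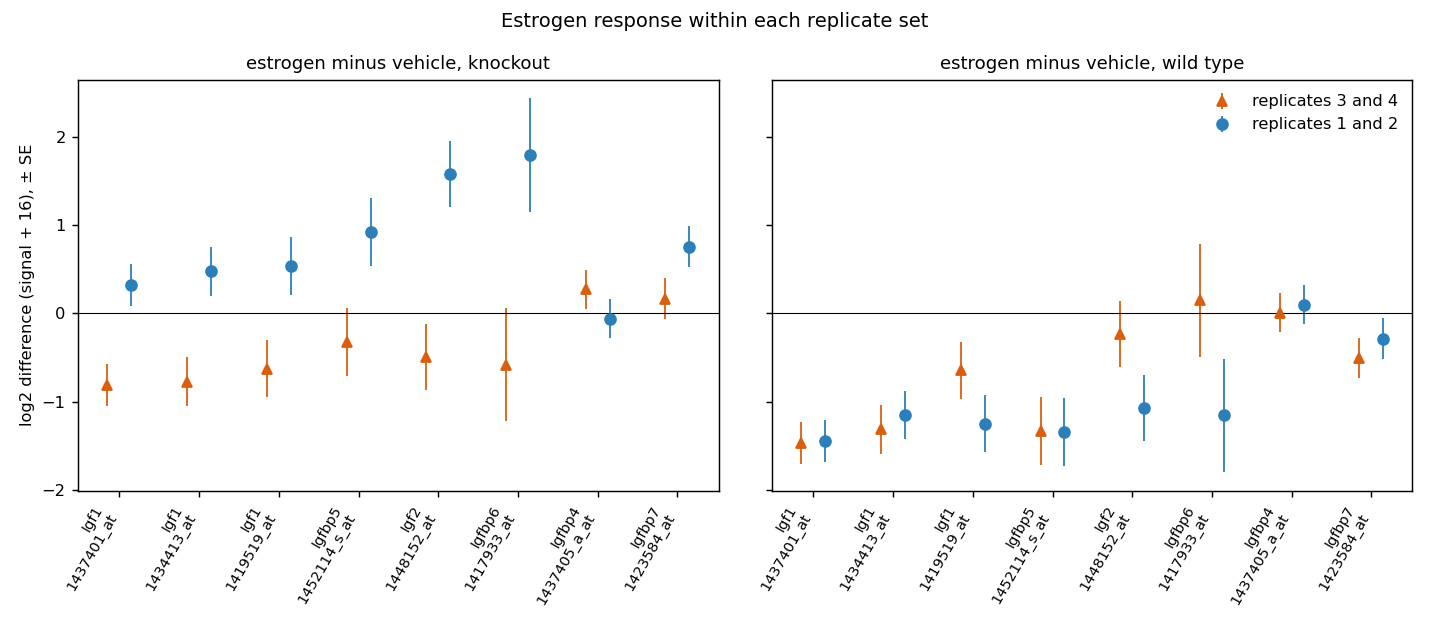
Estrogen minus vehicle (log2 of signal + 16, ± SE) for 8 probe sets in knockout and wild type, with triangles for replicates 3 and 4 and circles for replicates 1 and 2, from the fit with 1 mean per group and set. In the knockout Igf1, Igfbp5, Igf2 and Igfbp6 are below 0 in replicates 3 and 4 and above 0 in replicates 1 and 2, while in wild type Igf1 and Igfbp5 are below 0 in both.

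In replicates 1 and 2, skeletal muscle and fat marker sums were higher after estrogen in the knockout and lower in wild type. By group means, 0 of the 12 muscle genes were lower after estrogen in the knockout and 11 of 12 in wild type. In replicates 1 and 2 they summed to 240181 and 723080 in estrogen-treated knockout mice against 89538 to 159133 in vehicle-treated ones, and to 158098 to 223037 in estrogen-treated wild-type mice against 336264 to 544348 in vehicle-treated ones. In replicates 3 and 4 they summed to 3811 and 38098.5 in estrogen-treated knockout mice against 7809 to 11347 in vehicle-treated ones, and to 9266 to 22534 in estrogen-treated wild-type mice against 18138 to 25436 in vehicle-treated ones, so both pairs overlapped. The 6 adipocyte genes measured of the 8 listed were lower after estrogen in 1 of 6 cases in the knockout and in 6 of 6 in wild type, comparing group means. In replicates 1 and 2 their sum was 32354 and 85337 in estrogen-treated knockout mice against 21950 to 26994.5 in vehicle-treated ones. In wild type of that set it was 27649 to 35518 after estrogen against 56347 to 71046 with vehicle. In replicates 3 and 4 it was 11436 to 13867 in estrogen-treated knockout mice against 12218 to 16035 in vehicle-treated ones, which overlapped. In wild type of that set it was 13435 to 19470 after estrogen against 20438 to 21536 with vehicle, which did not overlap. Car3, with a mean of 17108, gave most of this sum. Adipoq was the 1 gene lower in the knockout, at 3216 after estrogen against 3374 with vehicle. Whether the sum stands for fat apart from other tissues was not tested. In replicates 3 and 4 the 12 cartilage genes summed to 25965 to 70375 in estrogen-treated knockout mice against 43713 to 59833 in vehicle-treated ones, and to 24402 to 39971 in estrogen-treated wild-type mice against 89428 to 90582 in vehicle-treated ones. In replicates 1 and 2 the cartilage sums were 12294 and 104913 in estrogen-treated knockout mice against 52754 to 54948 in vehicle-treated ones. In wild type of that set they were 20840.0 to 36332 after estrogen against 21630.1 to 23059 with vehicle. By group means over both sets, 8 of the 12 cartilage genes were lower after estrogen in the knockout and 12 of 12 in wild type. The 6 osteoblast genes of 10 listed summed to 91651.5 to 115121 in estrogen-treated knockout mice against 83245.5 to 103911 in vehicle-treated ones, and to 89975 to 96750.5 in estrogen-treated wild-type mice against 89378 to 128643 in vehicle-treated ones. Col1a2, Col1a1 and Ibsp, with means of 37695, 30819 and 17555, gave most of this sum. By group means, 1 of the 6 osteoblast genes was lower after estrogen in the knockout and 4 of 6 in wild type. The 6 osteocyte genes summed to 15854 to 27981 in estrogen-treated knockout mice against 12518 to 16114 in vehicle-treated ones. In wild type they summed to 19330 to 24195 after estrogen against 15498 to 18675 with vehicle, mostly through Dmp1. By group means 0 of these 6 were lower after estrogen in the knockout and 3 in wild type. For 6 B lymphocyte genes those counts were 5 and 6. No marker of these lists was at 0; the dimmest, an adipocyte gene, averaged 29.8. The part of these tissues in the Igf1 and Igfbp5 values was not tested.

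Igf2, the second ligand, which is known mainly from fetal growth, had no unadjusted p below 0.05 for estrogen over the 4 mice of a group. Probe set 1448152_at gave 894, 640.5, 300.0 and 183 in estrogen-treated knockout replicates 1 to 4, against 198, 298, 329 and 345 in vehicle-treated knockout replicates. In wild type it gave 312, 267, 311 and 129 after estrogen, against 534, 728, 242 and 238 with vehicle. The high values all belonged to replicates 1 and 2, in the estrogen-treated knockout and in the vehicle-treated wild type. The difference was 0.54 ± 0.44 in the knockout (adjusted p = 1.00) and −0.65 ± 0.44 in wild type (adjusted p = 0.893). By set, the knockout response was −0.49 ± 0.38 in replicates 3 and 4 and 1.58 ± 0.38 in replicates 1 and 2, a difference of −2.07 ± 0.53 (adjusted p = 0.953). The genotype responses stood −0.26 ± 0.53 apart in replicates 3 and 4 (adjusted p = 1.00) and 2.65 ± 0.53 apart in replicates 1 and 2 (adjusted p = 0.0735). The other probe set, 1415931_at, stayed at 7.20 to 118, with a mean among the lowest 30% of probe sets (under 77.0), and differed by 0.46 ± 0.57 in the knockout and 0.60 ± 0.57 in wild type.

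Igf1r encodes the receptor, and its 5 probe sets did not move as one. Probe set 1446303_at gave 425, 495, 375 and 354 in estrogen-treated knockout mice, all below the 649, 509, 526 and 607 of vehicle-treated knockout mice, a difference of −0.46 ± 0.17 (adjusted p = 1.00). In wild type its difference was 0.06 ± 0.17. Probe set 1426565_at differed by −0.41 ± 0.25 in the knockout and 0.43 ± 0.25 in wild type, and the responses stood −0.84 ± 0.36 apart (adjusted p = 0.927). That knockout value leaned on replicate 1, at 332 against 715 to 783 in the other estrogen-treated knockout mice, and was −0.12 without it. Probe set 1452982_at differed by −0.08 ± 0.16 in the knockout (95% interval −0.41 to 0.26) and 0.16 ± 0.16 in wild type (−0.17 to 0.49). Over the 16 arrays 1426565_at correlated with 1428967_at at r = 0.80 and with 1446303_at and 1452982_at at 0.30 and 0.10.

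Irs1, the adaptor that couples the receptor to PI3 kinase, had opposite signs in the genotypes. It gave 1698, 1450.3, 1699 and 1221 in estrogen-treated knockout mice, against 899, 1006, 1294 and 1059 in vehicle-treated knockout mice. In wild type it gave 1498, 736, 1256 and 1236 after estrogen, against 1676, 1163, 1723 and 1285 with vehicle. The knockout groups overlapped only by replicate 4 after estrogen and replicate 3 with vehicle. The difference was 0.50 ± 0.21 in the knockout (adjusted p = 1.00) and −0.33 ± 0.21 in wild type (adjusted p = 0.882), and the responses stood 0.83 ± 0.29 apart (adjusted p = 0.927). The wild-type value rested on estrogen-treated replicate 2, at 736, and was −0.12 without it. Unlike Igf1, the knockout response kept its sign in both sets, at 0.30 ± 0.30 in replicates 3 and 4 and 0.71 ± 0.30 in replicates 1 and 2; the change between sets was −0.42 ± 0.42 (adjusted p = 0.976).

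Igfbp5, a binding protein stored in bone matrix, gave the pattern closest to Igf1 among the members. Probe set 1452114_s_at gave 9470.1, 4852, 3005 and 2337 in estrogen-treated knockout replicates 1 to 4, against 3063, 4156, 3397 and 3229 in vehicle-treated knockout replicates. It gave 2738, 2467, 779 and 2291 in estrogen-treated wild-type replicates, against 6332, 6953, 3227 and 3560 in vehicle-treated wild-type replicates. The wild-type groups did not overlap. In the knockout, estrogen-treated replicates 1 and 2 lay above every vehicle-treated mouse and replicates 3 and 4 below every one, as for Igf1. The difference was 0.30 ± 0.41 in the knockout (adjusted p = 1.00) and −1.34 ± 0.41 in wild type (adjusted p = 0.562). The responses stood 1.64 ± 0.58 apart, with a 95% interval of 0.42 to 2.86 (adjusted p = 0.927).

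Single arrays weighed on these Igfbp5 values. Without estrogen-treated knockout replicate 1 the knockout difference was −0.08, and without estrogen-treated wild-type replicate 3 the wild-type difference was −0.92. Without the 3 arrays of high Actb ratio, which also had the highest spike-in signals, the Igfbp5 differences were −0.08 in the knockout and −1.29 in wild type, and those of Igf1 1437401_at were −0.46 and −1.35. By set the Igfbp5 response in the knockout was −0.32 ± 0.38 in replicates 3 and 4 and 0.92 ± 0.38 in replicates 1 and 2, and in wild type −1.33 ± 0.38 and −1.35 ± 0.38. The second probe set, 1422313_a_at, differed by 0.53 ± 0.30 in the knockout and −0.90 ± 0.30 in wild type (adjusted p = 0.626), and its responses stood 1.43 ± 0.42 apart (adjusted p = 0.927). In the knockout this probe set was above vehicle in both sets, at 0.58 ± 0.43 in replicates 3 and 4 and 0.48 ± 0.43 in replicates 1 and 2, where 1452114_s_at changed sign.

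Igf1 1437401_at and Igfbp5 1452114_s_at correlated at r = 0.92 over the 16 arrays, and at r = 0.89 once each set's mean was removed. The next pairs of members, with set means removed, were Igf2 with Igfbp6 at 0.68 and Irs1 with Igfbp7 at 0.67. These points share the 4 groups and the array-wide scaling, and the correlations are descriptions. Among 11367 genes with set means removed, those most like Igf1 were Ptn (r = 0.93), a heparin-binding growth factor, Fat3 (0.92), a protocadherin, Col3a1 (0.92), which encodes type III collagen, Antxr1 (0.91) and Fam167a (0.90). Those most like Igfbp5 were Sdc2 (0.96), a cell surface proteoglycan, Zfhx4 (0.95), Col3a1 (0.94), Lum (0.92), a small matrix proteoglycan, and Sfrp4 (0.91), a secreted Wnt antagonist. Col3a1 stood in both lists. Their wild-type log2 differences ran from −2.41 for Ptn to −0.88 for Fat3, and none passed the test. The genes of both lists were picked over the same 16 arrays with group differences left in. Their shared sign in wild type thus follows from the choice and is no further result.

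**Figure D4:**
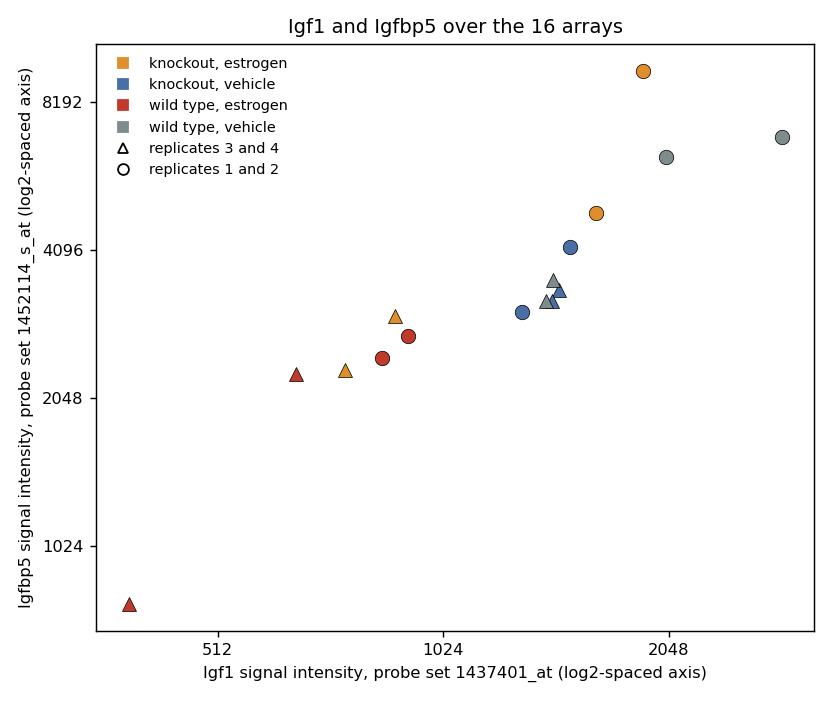
Signal intensity of Igfbp5 (1452114_s_at) against Igf1 (1437401_at) on log2-spaced axes, 1 point per mouse, coloured by group, with triangles for replicates 3 and 4 and circles for replicates 1 and 2. The 16 points lie along 1 rising band (r = 0.92), with estrogen-treated wild-type replicate 3 at its lower end (389 and 779) and vehicle-treated wild-type replicates 1 and 2 and estrogen-treated knockout replicate 1 at its upper end.

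Igfbp3, the main carrier of IGFs in blood, had in probe set 1423062_at 435, 463, 433 and 393 in estrogen-treated knockout mice, all above the 260.3, 356, 207 and 265 of vehicle-treated knockout mice. The difference was 0.66 ± 0.37 (adjusted p = 1.00). In wild type it was 0.48 ± 0.37, through estrogen-treated replicate 3 alone, at 1254 against 256 to 273 in the other estrogen-treated wild-type mice and 235 to 353 with vehicle. Without that mouse it was −0.06. The same mouse was highest in the other Igfbp3 probe set, 1458268_s_at, at 920.0, and lowest in both Igfbp5 probe sets and in 3 of the 4 of Igf1.

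Igfbp4, which is known to hold IGF1 back from its receptor and is released by the protease PAPPA, had no unadjusted p below 0.05 for estrogen in any of its 6 probe sets. Its log2 differences were −0.21 to 0.23 in the knockout and −0.36 to 0.15 in wild type. For 1437405_a_at, its narrowest, the 95% interval was −0.23 to 0.45 in the knockout and −0.29 to 0.39 in wild type. Igfbp2 differed by 0.26 ± 0.36 in the knockout and 0.32 ± 0.36 in wild type.

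Igfbp6, which prefers IGF2, had the largest SE of all members, 1.00 on the log2 scale. It gave 5004, 1492, 109 and 222 in estrogen-treated knockout replicates 1 to 4, against 548, 1102, 293 and 199.7 in vehicle-treated knockout replicates. In wild type it gave 439.9, 1577, 488 and 159.9 after estrogen, against 1441, 2449, 235 and 271 with vehicle. Replicates 1 and 2 were the high ones in all groups but estrogen-treated wild type. The estrogen differences of 0.61 ± 1.00 in the knockout and −0.50 ± 1.00 in wild type were within that spread. With the replicate set term their SE was 0.53. By set, the knockout response was −0.58 ± 0.64 in replicates 3 and 4 and 1.79 ± 0.64 in replicates 1 and 2. That was a difference of −2.38 ± 0.91 (adjusted p = 0.953 in limma). The genotype responses stood −0.73 ± 0.91 apart in replicates 3 and 4. In replicates 1 and 2 they stood 2.95 ± 0.91 apart (adjusted p = 0.157 in limma). Igfbp7, a low-affinity relative, had in 1423584_at differences of 0.46 ± 0.22 in the knockout (adjusted p = 1.00) and −0.39 ± 0.22 in wild type (adjusted p = 0.850), and the responses stood 0.86 ± 0.31 apart (adjusted p = 0.927). Without estrogen-treated knockout replicate 1 the knockout difference was 0.28, and by set it was 0.17 ± 0.23 in replicates 3 and 4 and 0.76 ± 0.23 in replicates 1 and 2. Its other 2 probe sets had mean signals of 133 and 75.4, and their responses stood 0.31 ± 0.50 and −0.03 ± 0.59 apart.

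Between the genotypes, no member passed after estrogen (0 of 27, against 0.0% of all probe sets) or with vehicle (0 of 27, against 0.0%), and none passed for the difference between the responses (0 of 27, against 0.0%). After estrogen 6 of the 27 had an unadjusted p below 0.05 as higher in the knockout, 3 of Igf1, both of Igfbp5 and 1 of Igfbp7, against 2.69% of all probe sets, and 2 as lower, both of Igf1r, against 2.22%. Igfbp5 1452114_s_at was higher by 1.18 ± 0.41 and Igf1 1437401_at by 0.83 ± 0.31, each with an adjusted p of 1.00. Groups did not overlap after estrogen for Igf1 1452014_a_at and Igfbp5 1422313_a_at, both higher in the knockout, where 1.13% of all probe sets lay that way, and for none as lower, where 0.953% did. With vehicle 1 of the 27 had an unadjusted p below 0.05 as lower in the knockout, Irs1 at −0.44 ± 0.21 (adjusted p = 0.993), where 1.86% of all were, and 0 as higher, where 1.72% were. The vehicle-treated groups overlapped for every member, where 1.55% of all probe sets lay wholly higher and 1.65% wholly lower in the knockout. For the difference between the responses the count was 6 higher in the knockout, against 3.06% of all, and 2 lower, against 2.28%. These comparisons share their groups of mice with those of estrogen in each genotype, so their values are not independent of one another. Several of the probe sets counted are of the same gene, so they are not separate members. Averaged over the genotypes, 0 of the 27 passed for estrogen, against 0.00222% of all; at an unadjusted p below 0.05 there was 1 higher, Igfbp3 1423062_at (2.04% of all), and 4 lower, all of Igf1 (2.61%). Averaged over the treatments, 0 passed for the knockout, against 0.0%, and 0 had an unadjusted p below 0.05, where 1.69% of all were higher and 1.55% lower.

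Between the replicate sets, 4 of 6 Igfbp4 probe sets were higher in replicates 3 and 4, and that of Igfbp6, 1 of 2 of Igfbp5 and 2 of 4 of Igf1 were lower. With group means in the fit, 8 of the 27 passed for replicates 3 and 4 against replicates 1 and 2, where 11.2% of all probe sets passed. These 8 are of Igfbp4, Igf1, Igfbp5 and Igfbp6 only, and those of the same gene are not separate members. The share of all probe sets includes dim ones, while 25 of the 27 had mean signals above the lowest 30%. A base without the dim ones is given below with the other pathway genes. The count is therefore not evidence about the axis as a whole. Igfbp4 rose in 4 of its 6 probe sets, with 1437406_x_at higher by 0.59 ± 0.10 (adjusted p = 0.000856), where 6.41% of all rose. Lower were 4 probe sets, where 4.76% of all were. Igfbp6 fell by 2.49 ± 0.38 on the log2 scale (adjusted p = 0.000468), to 109 to 488 in replicates 3 and 4 against 439.9 to 5004 in replicates 1 and 2. Igfbp5 1452114_s_at fell by 0.84 ± 0.21 (adjusted p = 0.0134), Igf1 1437401_at by 0.65 ± 0.15 (adjusted p = 0.00889) and Igf1 1434413_at by 0.58 ± 0.17 (adjusted p = 0.0313). Igf1 1452014_a_at had the other sign, at 0.27 ± 0.15 (adjusted p = 0.256). The skeletal muscle sums given above differ between the same sets, and 9 osteoclast genes summed to 45428 to 68551 in replicates 3 and 4 against 22840.5 to 43521 in replicates 1 and 2. All 3 arrays of high Actb ratio also belong to replicates 1 and 2, and 3 of the 27 passed without them. The share of all probe sets passing in that fit is not given here, so this count is not set against the whole array. Igfbp6 and Igfbp4 1437406_x_at passed in every alternative fit that held them (24 of 24 and 23 of 23). The part of the tissues or of those arrays in these values was not tested.

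**Figure D5:**
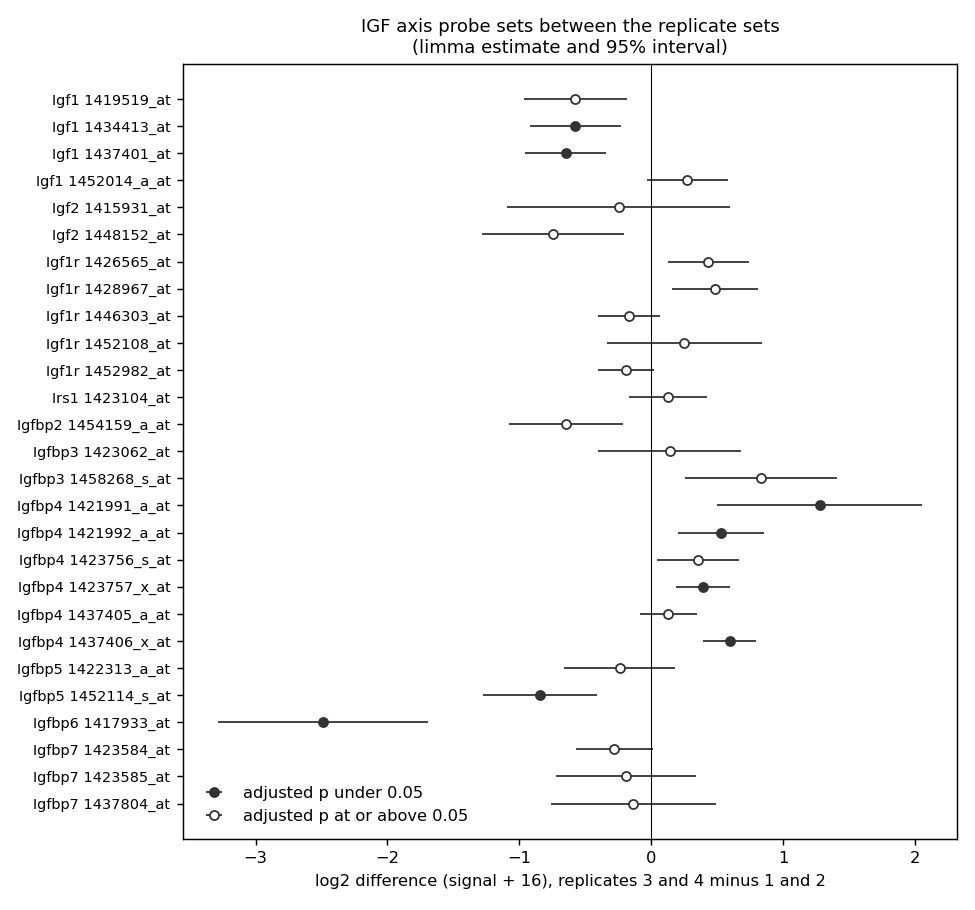
Log2 difference of signal + 16 with its 95% interval for replicates 3 and 4 minus replicates 1 and 2, from the limma fit with group means, for each of the 27 probe sets. Filled points passed at an adjusted p below 0.05: 4 of Igfbp4 to the right of 0, and 2 of Igf1, 1 of Igfbp5 and Igfbp6 to the left.

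Of 60 other genes of the pathway, 56 had a probe set, and none passed in the comparisons of estrogen or genotype. Each gene was taken by its probe set of highest mean signal, while the shares of all probe sets include dim ones. At an unadjusted p below 0.05, estrogen against vehicle took 1 gene of the 56 as higher (1.6% of all probe sets) and 0 as lower (2.13%) in the knockout. In wild type it took 4 as higher (2.58%) and 5 as lower (3.57%). Ptpn1, a phosphatase that acts on the insulin and IGF receptors, gave 6285 ± 916 in estrogen-treated and 5674 ± 571 in vehicle-treated knockout mice, against 7832 ± 1843 in estrogen-treated and 4915 ± 919 in vehicle-treated wild-type mice (mean ± SD), a wild-type difference of 0.66 ± 0.19 (adjusted p = 0.498). Htra1, a secreted protease that cleaves IGF binding proteins, had responses 1.36 ± 0.44 apart (adjusted p = 0.927). Between the replicate sets 8 of the 56 passed, where 11.2% of all probe sets did. With 1 probe set per gene and the lowest 30% left out, a base more like that of the 56, 2364 of 12735 genes passed. Grb10, which binds the activated receptor and dampens it, rose by 0.57 ± 0.12 in replicates 3 and 4, as did Pik3cb, a PI3 kinase subunit, by 0.61 ± 0.18, and Tsc2, a brake on mTOR, by 0.49 ± 0.14. Pik3cd fell by 1.89 ± 0.33, Foxo1 by 0.55 ± 0.14, Foxo4 by 0.48 ± 0.13, Tsc1 by 0.48 ± 0.11 and Jak2, the kinase of the growth hormone receptor, by 0.40 ± 0.11.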

How the data were processed

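Signal intensities per probe set were deposited by the authors, 1 value per array, and GCOS is named as their source per the submitters' processing notes. On the files, each array had the same trimmed mean of about 500.0, so the scaling fixes the total and differences are relative to it. The 16 mice were not pooled, per the design text. The 64 control probe sets were left out. The remaining 45037 were fitted together in limma 3.58.1 (R 4.3.3) on log2(signal + 16), with empirical Bayes variances and a trend, no filter and Benjamini-Hochberg adjustment at 0.05; the pseudocount shrinks differences of dim probe sets. The code was tested on simulated data. Probe sets were named from the platform annotation, and promoters come from RefSeq, build GRCm38.p6. The members, gene lists and replicate-set comparison were chosen with earlier results of these data known. Every member probe set is named or counted. Other pathway genes are named at an unadjusted p under 0.01 for estrogen or an adjusted p under 0.05, and the 5 genes most like Igf1 and Igfbp5 by correlation. Alternatives changed the pseudocount, filter, normalization, array weights, variance trend, replicate terms and arrays used. Precision is limited by 4 arrays per group.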

Additional observations from a re-analysis of the deposited data

Results flagged for a closer look

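In 6 of 108 sets of 4 arrays (27 probe sets in 4 groups), 1 array stood far from the other arrays of its group by Dixon's ratio, the gap to the nearest value over the whole range, which had to exceed the 95% critical value for 4 samples. Chance gives about 1 such case in 20. Igf1r 1426565_at in estrogen-treated knockout replicate 1 had a ratio of 0.893, at a signal of 332. Igfbp3 1423062_at in estrogen-treated wild-type replicate 3 had a ratio of 0.961, at 1254. Igfbp5 1452114_s_at in the same mouse had a ratio of 0.857, at 779. Igfbp5 1422313_a_at in vehicle-treated wild-type replicate 2 had a ratio of 0.907, at 1265. Igfbp7 1423585_at had a ratio of 0.832 in vehicle-treated knockout replicate 4, at 84.7, and 0.959 in estrogen-treated wild-type replicate 4, at 248.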

How the results depend on the processing

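For estrogen and genotype, 0 of the 27 probe sets passed under each alternative tried, except 1 (Igf1 1437401_at) for estrogen in wild type with the replicate set term; with that term, leaving out 1 array at a time gave 0 to 1. For replicates 3 and 4 against replicates 1 and 2, 8 of 27 passed, where 11.2% of all probe sets did. The count was 4 of 10 with 1 probe set per gene and the lowest 30% left out, and 4 of 27 without a variance trend. It was 3 when the 3 arrays with the brightest spike-in controls were dropped, and 5 to 13 when 1 array was left out. The share of all genes for 1 probe set per gene is given above with the other pathway genes. Shares for the other fits are not given here. These counts therefore do not show whether the members changed more than the whole array did. The cause of the changes was not tested. With replicate number as a block, 0 passed in wild type, and Igf1 1437401_at had an adjusted p of 0.119 in limma. Mice of different groups were correlated over all probe sets after each group's mean was subtracted. Same-numbered mice then correlated at 0.0389 to 0.336 (median 0.156), no closer than mice of the same set with another number (−0.0522 to 0.39, median 0.195), so the numbers were not taken as pairs. Of 8812 alternative values of single probe sets over 44 settings, 0 reversed a call, 614 uncalled values changed sign, 38 gained a call and 31 lost one. Of the calls between replicate sets, Igf1 1434413_at and Igfbp4 1421991_a_at and 1421992_a_at each passed in 14 of 23 settings.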
